A study of Mus musculus with 6 samples.

Results

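Macrophages of the dermal collecting lymphatic vessels were compared between mice 18 months and 12 months old. A barcode counted as a macrophage when it held at least 3 UMIs of C1qa, C1qb and C1qc together and none of Cd3e or Cd79a. A UMI (unique molecular identifier) stands for 1 captured transcript. Only barcodes in which 500 or more genes were seen, and no more than 10% of UMIs were mitochondrial, entered this gate. These rules gave 2759 macrophages of 11762 barcodes kept in the 4 libraries of these ages. All 6 libraries of the study held 24488 barcodes kept. UMIs were summed over the macrophages of each library, so the comparison rests on 2 sums a side.

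The study took these vessels, with tissue around them, from the skin of C57BL/6 mice, along the stretch from inguinal to axillary node, and made single-cell 3′ RNA libraries. Each age (6 weeks, 12 months, 18 months) has 1 library labelled male and 1 labelled female. All mice were anesthetized with ketamine and xylazine, received Evans Blue in the inguinal node to show the vessels, and their tissue was digested with collagenase I, elastase, dispase and DNaseI. Only the 18-month animals are described as supplied by the National Institute on Aging, so age and supplier cannot be told apart. The number of animals behind a library is not given, and p-values measure only the spread between these libraries.

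Tissue macrophages engulf dead cells and debris, present antigen and sense injury. Those along lymphatic vessels and in the skin often carry Lyve1, a hyaluronan receptor, and the scavenger receptors Mrc1 and Cd163. On stimulation, macrophages switch on cytokines and chemokines through factors such as NF-kB and AP-1, and enzymatic digestion of tissue is itself known to start such a response.

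The gate took 1710 and 91 macrophages from the libraries labelled 12-month male and 12-month female, and 597 and 361 from the 18-month ones in the same order. Below, a run of 4 values follows this order: 12-month labelled male, 12-month labelled female, 18-month labelled male, 18-month labelled female. The sums held 3795779, 656099, 2337274 and 2358650 UMIs, with medians of 2004, 7333, 3737 and 3935 UMIs per macrophage. The labelled 12-month female library thus had the fewest macrophages and the deepest. Macrophages were 26.9% (95% exact Clopper-Pearson interval 25.8 to 28.0%), 9.11% (7.40 to 11.1%), 20.0% (18.6 to 21.5%) and 25.4% (23.2 to 27.8%) of the barcodes kept, and the 12-month pair lies on both sides of the 18-month pair. These intervals cover counting error only. Among barcodes with at least 1000 genes the shares were 18.8%, 10.8%, 20.4% and 28.1%, with both 18-month libraries above both 12-month ones. The smallest p that an exact two-sided permutation test of 2 against 2 libraries can give is 0.333, so single values such as these shares cannot pass a test.

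The label macrophage was borne out by genes outside the gate. The 12 macrophage markers other than the 3 C1q genes summed to 12116, 10495, 13355 and 16241 CPM (UMIs of a gene per 1000000 UMIs of the sum), and none of the 12 was at 0 in any of the 4 sums. Adgre1, which encodes the F4/80 antigen, stood at 298, 248, 268 and 169.6 CPM, and Csf1r, the receptor for the macrophage growth factor CSF1, at 611, 701, 821 and 463 CPM. At the edge of the gate, 29, 2, 8 and 4 macrophages held exactly 3 C1q UMIs, and 35, 1, 14 and 5 barcodes outside held exactly 2. Adgre1 was seen in 27.6%, 0%, 12.5% and 50% of the former and in 34.3%, 0%, 0% and 0% of the latter. Among these 4 libraries 1 macrophage barcode was shared by any pair, the 2 labelled male ones.

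The sex labels of the 12-month pair went against the sex-linked genes. Xist, transcribed from the inactive X chromosome of females, was at 1143, 0, 0.428 and 590.2 CPM. The Y-linked genes Ddx3y, Eif2s3y, Kdm5d and Uty together were at 0, 232, 206 and 0 CPM. The libraries are therefore named by their labels throughout, and labelled sex is not a term of the test reported first. Each age still has 1 library with Xist and 1 with Y-linked genes.

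No gene passed the test between 18 and 12 months. Of 9520 genes tested with edgeR's quasi-likelihood test, 0 were called higher (0%) and 0 lower (0%) at a Benjamini-Hochberg adjusted p under 0.05, and the smallest adjusted p was 0.813. Before adjustment, 122 genes higher (1.28%) and 297 lower (3.12%) had an edgeR p under 0.05. DESeq2's Wald test on the same sums called 4 genes, all lower. They were Gdf15 (adjusted p 0.00130), Il6 (0.00461), Il1rn (0.0200) and Cd83 (0.0374).

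The call count depended on which libraries and genes entered. Without the library labelled 18-month male, edgeR called 223 genes higher and 457 lower, with the 18-month side resting on 1 sum assumed to vary like the 12-month pair. Sex was also entered as a term after exchanging the labels of the 12-month pair, as the sex-linked genes read. In that fit edgeR called 52 higher (0.546%) and 160 lower (1.68%), on 1 fewer degree of freedom than the 2 without sex. Of the 52 higher calls only 15 were without overlap between the ages, and of the 160 lower calls 147 were. The higher calls included 4 epithelial and 3 muscle and pericyte markers. Without the filter on low counts edgeR called 85 and 109 of 17015 genes. In simulated data of the same design the edgeR test recovered 0% of 2-fold and 1.05% of 4-fold differences among 9655 genes, so most differences of this size would go uncalled.

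What follows describes levels. Each list below is read against 2 backgrounds over all 9520 genes. After TMM scaling, 18.3% were lower in both 18-month sums than in both 12-month sums, and 22% were higher. On plain CPM these shares were 12.1% and 31.3%. Among the 4052 genes of at least 30 CPM they were 27.3% and 15.6% after scaling. The shares lower of the interferon, scavenger receptor, cytokine receptor and lipid-associated lists lie between 18.3% and 27.3%. Those of the antioxidant, iron, ER stress, matrix, growth factor and glycolysis lists lie little above 27.3%. Over all genes, 3.12% were lower and 1.28% higher at an edgeR unadjusted p under 0.05. The median log2 fold change of all genes tested was 0.05. Among 25 functional lists, 20 had a median below 0 and 5 above. Apart from Fabp5 and Gpnmb, each gene given below with a log2 fold change is among 76 followed across the fits. The edgeR adjusted p of the 76 lay between 0.813 and 0.825, so none of them passed in the fit without a sex term. Fabp5 and Gpnmb did not pass in it either (edgeR adjusted p 0.813). The fit with exchanged sex labels called 32 of the 76, 30 lower and 2 higher, at edgeR adjusted p of 0.000902 to 0.0486. Those genes are named with their lists below. Over all 9520 genes that fit called 0.546% higher and 1.68% lower. Many of the 76 were picked for a small p on the same sums, so a high count of calls in any fit is partly built in. The fit without the library labelled 18-month male called 44 and the fit without the low-count filter 24.

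Cytokines and inflammatory mediators were the list with the most members lower in both 18-month sums. This held for 19 of 31 members tested, and 0 were higher in both (background 18.3% and 22%). The median log2 fold change was -0.84, and 11 of the 31 had an edgeR unadjusted p under 0.05, all lower. The fit with exchanged sex labels also called 11, all lower, among them Gdf15, Il6, Nlrp3, Tnf, Il1rn, Nfkb1 and Tnfaip3. The median stayed between -1.34 and -0.78 under 19 alternative settings.

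Gdf15, a stress-induced hormone of the TGF-beta family, had the smallest p among lower genes under the naming rule. Its levels were 317, 559, 114 and 83.9 CPM, and both 18-month sums were below both 12-month sums. Its log2 fold change was -2.35 (SE 0.47, edgeR unadjusted p = 0.00167). The 6-week libraries, labelled male then female, had 104 and 77.9 CPM, near the 18-month pair. Gdf15 was called in 4 of 19 alternatives, over which its adjusted p lay between 7.21e-05 and 1.00, and the same count held for Il6, between 4.97e-08 and 1.00. Il6, an inflammatory cytokine that acts on liver, stroma and lymphocytes, was at 143, 288, 52.6 and 19.1 CPM, with a log2 fold change of -2.77 (SE 0.64). The 4 values do not overlap between ages, and in each age one sum is well above the other. Nlrp3, the sensor that assembles the inflammasome, was at 284, 283, 129 and 87.8 CPM (log2 fold change -1.58, SE 0.38). The 12-month pair was nearly equal for this gene, and both 18-month sums lay below it.

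The upstream bases of these 3 members, whose p values were the smallest of the list, are shown because cytokine genes are known to share regulators. Il6 and Nlrp3 were added to Gdf15 for this after their values were seen. They are the 250 bases before the annotated start, 5′ to 3′ on the gene's strand, from RefSeq (GRCm38.p6). The genes lie at chr8:70629393-70632456, chr5:30013114-30019981 and chr11:59541568-59566956 (GRCm38, GENCODE M21). The upstream windows are chr8:70632457-70632706 on the minus strand for Gdf15, chr5:30012864-30013113 on the plus strand for Il6 and chr11:59541319-59541568 on the plus strand for Nlrp3. Gdf15 and Nlrp3 each have another listed start inside the gene, and its window held no match either. Capitals mark matches to any of 6 motifs searched on both strands.
Gdf15: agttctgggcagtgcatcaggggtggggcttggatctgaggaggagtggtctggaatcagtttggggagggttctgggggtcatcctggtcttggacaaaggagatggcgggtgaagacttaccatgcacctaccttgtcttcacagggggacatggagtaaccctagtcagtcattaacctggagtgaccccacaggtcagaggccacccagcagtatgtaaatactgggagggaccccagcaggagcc
Il6: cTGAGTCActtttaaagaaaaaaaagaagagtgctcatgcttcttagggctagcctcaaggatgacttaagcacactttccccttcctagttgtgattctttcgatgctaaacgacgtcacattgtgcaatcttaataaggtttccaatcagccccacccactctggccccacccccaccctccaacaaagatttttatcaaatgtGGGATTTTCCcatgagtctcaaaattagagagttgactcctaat
Nlrp3: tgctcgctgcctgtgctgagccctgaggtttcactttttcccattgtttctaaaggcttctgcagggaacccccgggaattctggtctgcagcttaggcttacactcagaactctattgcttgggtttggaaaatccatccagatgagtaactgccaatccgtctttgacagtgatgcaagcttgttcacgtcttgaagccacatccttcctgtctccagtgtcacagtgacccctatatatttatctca
The motifs were TGANTCA (AP-1), TGACNNNGC (antioxidant element), GAANNTTC (heat shock core), the 10-base NF-kB and interferon elements, and TATAAA. Among 32851 mouse promoter windows of this length they were found in 6.75%, 10.2%, 6.69%, 1.41%, 2.98% and 12.4%, in that order. Il6 held 1 AP-1 match starting 249 bases before the start and 1 NF-kB match starting 44 bases before it, which did not overlap. In the windows of Gdf15 and Nlrp3 none of the 6 was found. A match is a description of letters and says nothing of binding in these cells.

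The order of Il6, with the labelled 12-month female sum highest and the labelled 18-month female sum lowest and the labelled 12-month male sum above the labelled 18-month male one between them, was found in 13 of the 31 members on plain CPM. The share of all genes tested with this order was not counted, so the 13 cannot be read as a trait of the list. Tnf, the tumour necrosis factor, was at 223, 495, 166 and 58.1 CPM (log2 fold change -1.88, SE 0.66, edgeR unadjusted p = 0.0259). The labelled 12-month female sum was the highest of the 4 and the labelled 18-month female sum the lowest. Il1rn, the soluble blocker of the IL-1 receptor, was at 208, 622, 109 and 40.3 CPM, a log2 fold change of -2.68 (SE 0.74). Its 12-month sums differed from each other more than the 12-month labelled male sum did from the 18-month labelled male one. In the libraries with Xist, Il1rn was at 208 against 40.3 CPM between ages, and in those with Y-linked genes at 622 against 109 CPM. Nfkb1, a subunit of NF-kB, was at 399.7, 518, 222 and 114 CPM (log2 fold change -1.64, SE 0.47), and Tnfaip3, a ubiquitin-editing brake on NF-kB, at 384, 712, 249 and 99.2 CPM (-1.85, SE 0.59). Cd83, a surface protein of activated antigen-presenting cells, belongs to no list. It was at 977, 933, 400.0 and 181 CPM (log2 fold change -1.90, SE 0.48), with a 12-month pair that nearly coincides. Cd83 was also called lower with exchanged sex labels. Il1rn, Nfkb1, Tnfaip3 and Cd83 were picked after their values were seen. Il1b, the cytokine released through the inflammasome, did not share the pattern. It was at 85.1, 27.4, 33.8 and 95.8 CPM, and the ages overlap.

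**Figure D1:**
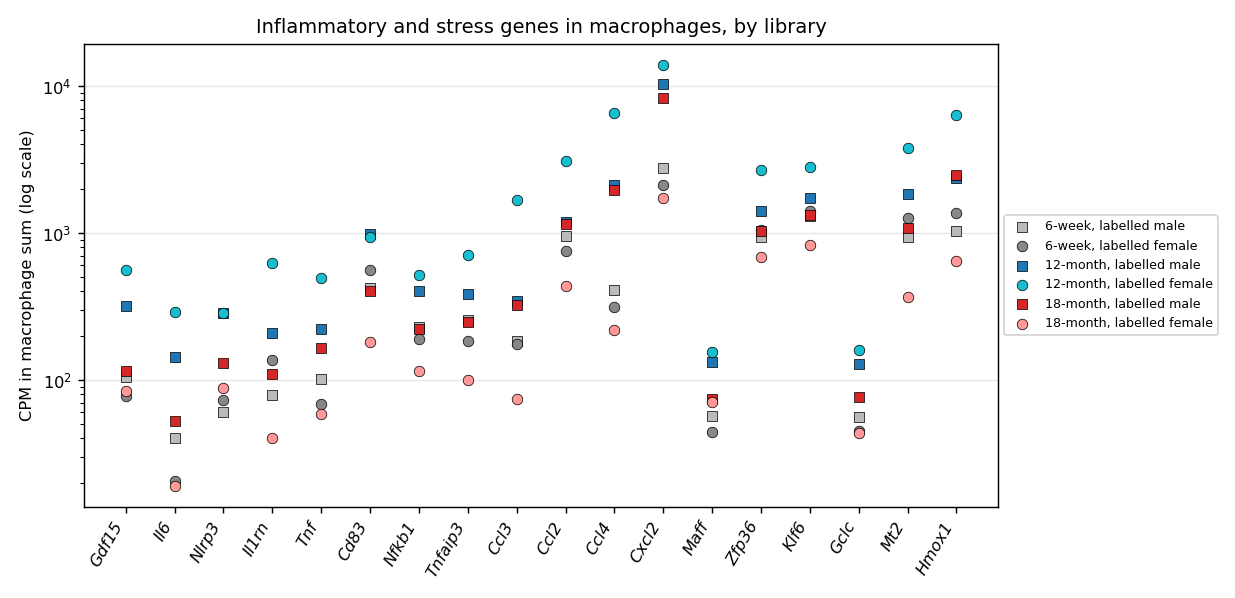
CPM in the macrophage sum of each library on a log axis, for 18 cytokine, chemokine, immediate early and antioxidant genes, with 1 point per library. Squares are libraries labelled male and circles those labelled female. The labelled 12-month female library is the highest for 16 of the 18 genes and the labelled 18-month female library lies below every 12-month library for all 18.

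Chemokine ligands, which draw leukocytes into tissue, had 12 of 21 members lower in both 18-month sums and 0 higher (background 18.3% and 22%), with a median log2 fold change of -1.0. Ccl3, a ligand of CCR1, was at 345, 1674, 322 and 73.8 CPM (log2 fold change -2.56, SE 0.96). The labelled 18-month male sum is close to the labelled 12-month male one here, and the outer values are the labelled female libraries. Ccl2, which recruits CCR2-bearing monocytes, was at 1191, 3093, 1147 and 433 CPM (-1.65, SE 0.67), in the same order. Ccl9, another CCR1 ligand, was at 1972, 2132, 1482 and 855 CPM (-1.0, SE 0.40). Ccl4 was at 2111, 6507, 1951 and 217 CPM (-2.19, SE 1.02) and the neutrophil attractant Cxcl2 at 10228, 13859, 8203 and 1724 CPM (-1.46, SE 0.70). For Ccl2, Ccl4 and Ccl3 the gap between ages within the labelled male pair is small beside the gap between the labelled female libraries. By the sex-linked genes each labelled pair joins a library with Xist to a library with Y-linked genes. Libraries with Xist had Ccl2 at 1191 against 433, Ccl3 at 345 against 73.8 and Ccl4 at 2111 against 217 CPM, 12 months first. Those with Y-linked genes had 3093 against 1147, 1674 against 322 and 6507 against 1951 CPM. Of the 21 members, 4 had an edgeR unadjusted p under 0.05, all lower, and 5 were called lower with exchanged sex labels, Ccl2, Ccl3 and Ccl4 among them.

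Immediate early genes, which encode fast-acting transcription factors and RNA decay factors, had 15 of 29 members lower in both 18-month sums and 3 higher, with a median of -0.64. Maff, a small Maf transcription factor, was at 132, 155, 73.6 and 70.4 CPM (log2 fold change -1.20, SE 0.34). Both 18-month sums were near each other and below both 12-month sums. Zfp36, which encodes tristetraprolin, a protein that destabilises cytokine messenger RNAs, was at 1418, 2696, 1022 and 684 CPM (-1.48, SE 0.47). Klf6, a zinc-finger factor, was at 1716, 2823, 1326 and 830.1 CPM (-1.28, SE 0.45). Fos, the AP-1 subunit often used as a sign of dissociation, was at 1889, 948, 1816 and 1819.7 CPM and overlapped between the ages. The list's name therefore covers members with unlike values. Maff and Zfp36 were called lower with exchanged sex labels.

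Genes of oxidative and metal stress were mixed. Of 33 antioxidant genes 10 were lower in both 18-month sums and 4 higher, and their median was -0.16. That median turned to 0.23 with an estimated profile of free RNA subtracted and to 0.02 when the sums were thinned to the smallest total. The library order of Il6 was found in 5 of the 33, again with no share over all genes to set beside it. Mt2, a metallothionein that binds zinc and copper, was at 1843, 3791, 1074 and 366 CPM (log2 fold change -2.17, SE 0.65). Gclc, the catalytic subunit of glutathione synthesis, was at 129, 160.0, 76.6 and 43.2 CPM (-1.46, SE 0.43), and Sqstm1, the autophagy receptor p62, at 539, 927, 427 and 281 CPM (-1.26, SE 0.46). Hmox1, which breaks down heme, was at 2379, 6304, 2464 and 645 CPM (-1.68, SE 0.75). On plain CPM Hmox1 does not separate the ages, and its labelled male libraries are alike. Between ages it was at 2379 against 645 CPM in the libraries with Xist. In those with Y-linked genes it was at 6304 against 2464 CPM. Mt2, Gclc, Sqstm1 and Hmox1 were among 6 members called lower with exchanged sex labels. Of 16 genes of iron and heme handling 5 were lower in both and 0 higher (median -0.16). Bach1, the heme-sensing repressor, was at 480.0, 838, 336 and 162 CPM (-1.61, SE 0.53) and called lower with exchanged sex labels, and the metal importer Slc39a14 at 28.7, 83.8, 17.1 and 28.0 CPM (-1.49, SE 0.60).

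Of 22 heat shock chaperones 5 were higher in both 18-month sums and 2 lower, and the share higher is near the 22% of all genes. Their median of 0.12 turned to -0.03 without the library labelled 12-month female and to -0.17 without the one labelled 18-month male. Hspd1, the mitochondrial chaperonin, was at 87.7, 56.4, 106 and 169 CPM (log2 fold change 0.71, SE 0.37) and Cacybp at 49.8, 47.2, 71.9 and 98.4 CPM (0.61, SE 0.33). Hspa1a, the inducible HSP70, was at 422, 221, 741 and 128 CPM, highest in the library labelled 18-month male and lowest in the other 18-month library. Bag3, a co-chaperone, was at 126, 209, 134 and 59.4 CPM and overlapped. Of 18 genes of ER stress and amino acid response 5 were lower and 2 higher, with a median of -0.25 that stayed between -0.49 and -0.10 under the alternatives. The list includes Atf4, the amino acid response factor, which was at 789, 959, 679.9 and 301 CPM (-1.02, SE 0.49).

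Sensors and receptors of the innate response had more members lower than higher. Of 21 pattern recognition genes 9 were lower in both 18-month sums and 3 higher (background 18.3% and 22%), with a median of -0.37. Tlr2, a receptor for bacterial lipopeptides, was at 233, 279, 149.7 and 94.1 CPM (log2 fold change -1.26, SE 0.41), and Clec4d, a C-type lectin, at 112, 267, 95.8 and 70.8 CPM (-1.39, SE 0.52). In both genes the 18-month sums were the lower pair. Among 26 receptors for growth factors, cytokines and chemokines 7 were lower and 3 higher. That share lower is no higher than the 27.3% of genes of at least 30 CPM. The median of -0.23 turned to 0.04 when each barcode was thinned to 1500 UMIs. Cxcr4, the receptor for CXCL12, was at 123, 77.7, 50.9 and 33.5 CPM (-1.44, SE 0.40, edgeR unadjusted p = 0.00870). Il4ra, the shared receptor chain for IL-4 and IL-13, was at 182, 491, 157 and 71.2 CPM (-1.77, SE 0.65), and its labelled 12-month female sum stands apart from the other 3. Ccr1 was at 298, 489, 239 and 217 CPM (-1.0, SE 0.42). Tlr2, Cxcr4 and Il4ra were called lower with exchanged sex labels, and Clec4d and Ccr1 were not.

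Complement genes had 6 of 17 members lower in both and 0 higher (median -0.37). Vsig4, a complement receptor of resident macrophages, was at 31.9, 36.6, 17.5 and 11.0 CPM (-1.43, SE 0.42), C5ar1, the C5a receptor, at 401, 524, 317 and 145 CPM (-1.19, SE 0.50) and Cfb at 12.6, 30.5, 11.1 and 5.51 CPM (-1.47, SE 0.65). Vsig4 and Cfb are low genes, with 24 to 121 and 13 to 48 UMIs per sum. Interferon-induced genes had 9 of 38 members lower in both and 0 higher (median -0.45), and 1 had an unadjusted p under 0.05. This was Stat2, a transducer of interferon signals, at 50.1, 86.9, 36.4 and 41.1 CPM (-1.01, SE 0.41). Isg15, a ubiquitin-like interferon product, was at 260.0, 899, 299 and 147 CPM and Irgm1, an interferon-induced GTPase, at 32.9, 107, 31.7 and 28.4 CPM. For Isg15 and Irgm1 the labelled 12-month female sum is above the other 3. C5ar1 and Isg15 were called lower with exchanged sex labels.

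**Figure D2:**
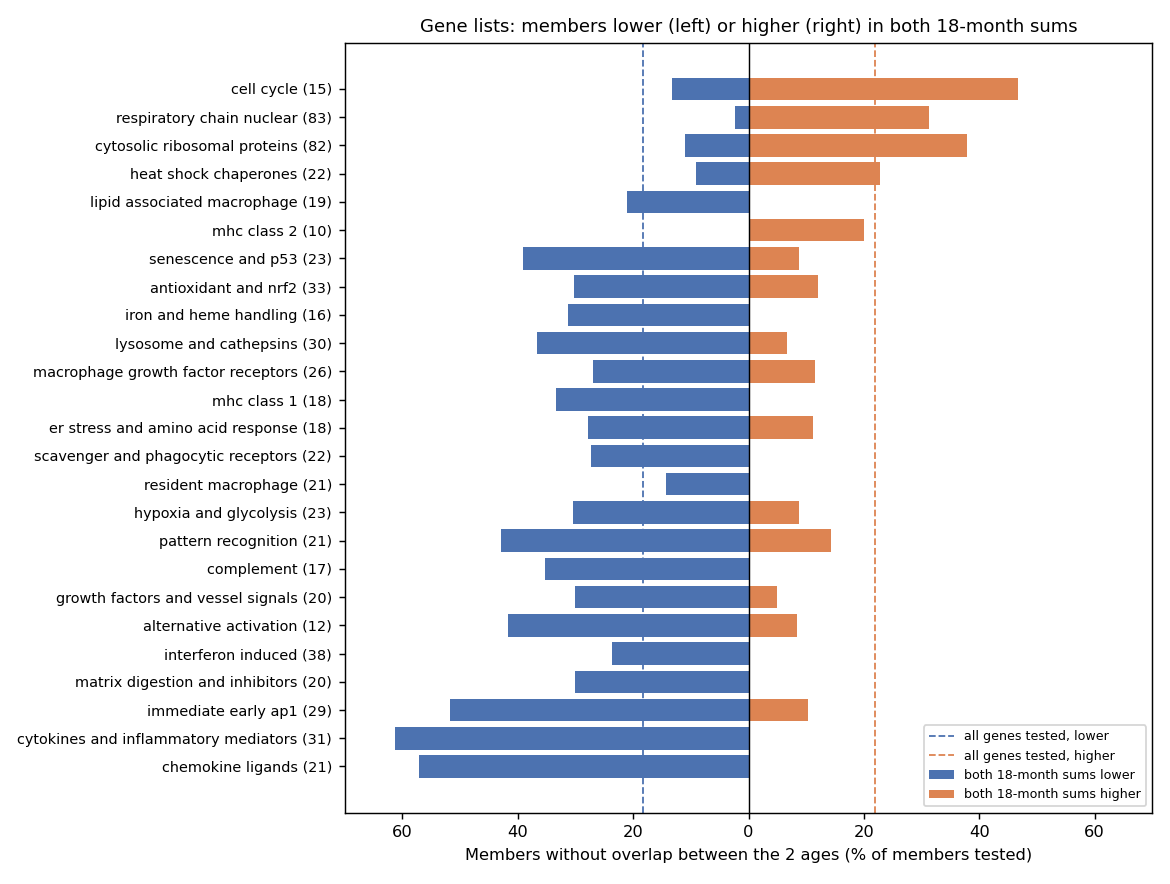
Share of the tested members of each of 25 functional gene lists that were lower (bars to the left) or higher (bars to the right) in both 18-month sums than in both 12-month sums, after TMM scaling, with the number tested in brackets. Dashed lines give the same share over all 9520 genes, 18.3% lower and 22% higher, and lists are ordered by median log2 fold change, with chemokine ligands lowest and cell cycle highest.

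Matrix digestion and glycolysis genes had 3 and 2 members with an unadjusted p under 0.05, all lower, and growth factor and vessel signal genes had 0. Of 20 matrix genes 6 were lower in both 18-month sums and 0 higher (median -0.62). Mmp19, a matrix metalloproteinase, was at 79.6, 239, 50.1 and 33.9 CPM (-2.12, SE 0.61), Adam9, a sheddase, at 78.5, 122, 55.2 and 48.3 CPM (-1.14, SE 0.39) and Plaur, the urokinase receptor, at 32.4, 117, 9.84 and 33.5 CPM (-1.99, SE 0.78). The labelled 12-month female sum was the highest in all 3. Of 20 growth factor and vessel signal genes 6 were lower and 1 higher. Bmp2 was at 79.0, 108, 63.7 and 24.2 CPM (-1.26, SE 0.54) and Hbegf, an EGF receptor ligand, at 400.2, 747, 391 and 114 CPM (-1.37, SE 0.67). Vegfa, which drives blood vessel growth, was at 37.9, 25.9, 12.4 and 39.0 CPM and overlapped. Of 23 hypoxia and glycolysis genes 7 were lower and 2 higher. They include Hk1, a hexokinase, at 45.3, 88.4, 32.1 and 29.7 CPM (-1.29, SE 0.45), Pfkfb3, an activator of glycolysis, at 157, 232, 127 and 61.1 CPM (-1.23, SE 0.49) and Pgk1 at 111, 195, 92.8 and 96.2 CPM (-0.90, SE 0.41). With exchanged sex labels Mmp19, Bmp2, Hbegf and Pfkfb3 were called lower.

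Senescence and p53 genes did not stand higher at 18 months. Of 23 members 9 were lower in both 18-month sums and 2 higher, with a median of -0.13 that turned to 0.20 without the library labelled 12-month male. The list shares Gdf15 and Il6 with the cytokine list. Cdkn1a, the p21 cell cycle inhibitor, was at 919, 951, 779 and 404 CPM (-0.85, SE 0.44), and Mdm2, the ubiquitin ligase that p53 induces against itself, at 210.5, 236, 125 and 78.0 CPM (-1.33, SE 0.40). Both 18-month sums were below both 12-month sums for each, and Mdm2 was called lower with exchanged sex labels.

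Genes of resident identity overlapped more. Of 21 resident macrophage genes 3 were lower in both 18-month sums after scaling, 0 were higher, and no member reached an unadjusted p of 0.05. Their median of -0.28 turned to 0.03 without the library labelled 18-month female. Lyve1 was at 1215, 859.6, 1174 and 836 CPM and Mrc1, the mannose receptor, at 1813, 2579, 2287 and 1437 CPM, and for each the 12-month and 18-month values interleave. Cd163, which takes up hemoglobin with haptoglobin, was at 891, 1596, 1353 and 621 CPM and Timd4, a phosphatidylserine receptor, at 167, 97.5, 118 and 131 CPM. Folr2, a folate receptor, was at 1555, 1151, 1339.6 and 985 CPM (-0.40, SE 0.36). Selenop, a selenium carrier, was at 5214, 5658, 5571 and 3217 CPM (-0.50, SE 0.38). Of 22 scavenger and phagocytic receptors 6 were lower and 0 higher, with Colec12 at 70.6, 39.6, 35.9 and 36.9 CPM (-0.81, SE 0.36), Pros1, a bridge to dying cells, at 232, 224, 181 and 118 CPM (-0.80, SE 0.38) and the fatty acid receptor Cd36 at 731, 2004, 1003 and 491 CPM.

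Genes of alternative activation, the state that IL-4 induces, had 5 of 12 members lower and 1 higher. Retnla, a secreted product of this state, was at 26346, 17828, 22319.6 and 17764 CPM, with a log2 fold change of -0.32 (SE 0.30) that is close to its error. Irf4 was at 52.4, 77.7, 47.1 and 26.3 CPM (-1.0, SE 0.45) and the eosinophil attractant Ccl24 at 957, 1855, 1066 and 555 CPM. Retnla was at 4060.2 and 20940.2 CPM at 6 weeks.

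Of 10 MHC class II genes, which serve antigen presentation, 2 were higher in both 18-month sums and 0 lower. The share higher is near the 22% of all genes. Ciita, the master activator of class II transcription, was at 11.3, 13.7, 29.5 and 29.3 CPM (log2 fold change 1.08, SE 0.39, edgeR unadjusted p = 0.0277), from 43 and 9 UMIs at 12 months and 69 and 69 at 18 months. Genes it is known to switch on did not separate the ages: H2-Ab1, a class II chain, was at 1932, 2695, 3008 and 1853 CPM and Cd74, the invariant chain, at 6192, 9169, 9937 and 6106 CPM. Of 18 MHC class I genes 6 were lower and 0 higher. B2m, the common light chain, was at 2444, 2001, 1481 and 1872 CPM (-0.61, SE 0.32). Of 30 lysosomal genes 11 were lower and 2 higher, among them the protease Lgmn at 1122, 1279, 778 and 692 CPM (-0.91, SE 0.34), and the proton pump subunits Atp6v1a at 345, 447, 278 and 174 CPM (-1.0, SE 0.42) and Atp6v0d2 at 6.85, 1.52, 10.3 and 31.4 CPM (1.82, SE 0.71). Lyz2, lysozyme, was at 4781, 3310.5, 5586 and 8501 CPM (0.60, SE 0.33), higher in both 18-month sums.

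Shares of macrophages with a UMI of a subset marker were read after each cell was thinned to 1500 UMIs, which left out 452, 1, 46 and 34 shallower macrophages. Lyve1 was seen in 73.6% (95% exact interval 71.1 to 76.0%), 63.3% (52.5 to 73.2%), 72.4% (68.5 to 76.1%) and 66.7% (61.3 to 71.8%) of macrophages, against at most 0.260% of fibroblasts. Thinned to 1000 UMIs the shares were 65.6%, 51.6%, 58.9% and 57.3%, and unthinned 78.1%, 89.0%, 84.4% and 71.2%. Lyve1-bearing macrophages were thus the majority in every library of both ages, and the age groups overlap. Ccr2, a receptor of monocyte-derived cells, was seen in 7.31% (5.94 to 8.89%), 7.78% (3.18 to 15.4%), 7.08% (5.08 to 9.55%) and 19.0% (14.9 to 23.6%), and unthinned in 8.60%, 13.2%, 11.1% and 26.0%. Trem2, a lipid receptor, was seen in 9.46% (7.90 to 11.2%), 8.89% (3.92 to 16.8%), 10.5% (8.09 to 13.4%) and 19.3% (15.1 to 24.0%), and unthinned in 12.7%, 34.1%, 23.3% and 37.1%. In both genes the library labelled 18-month female has the highest share of these 4, and the other 3 agree within counting error. Its interval overlaps the wide interval of the library labelled 12-month female in each gene. At 6 weeks, labelled male then female, Ccr2 was seen in 18.7% and 14.2% and Trem2 in 22.5% and 14.7% of thinned macrophages. Fibroblasts, thinned alike, had Ccr2 in 0.0779%, 0%, 0% and 0.260% and Trem2 in 0.0389%, 0%, 0.0691% and 0.260%. Fibroblast medians before thinning were 3228, 10273, 4788 and 5225 UMIs.

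**Figure D3:**
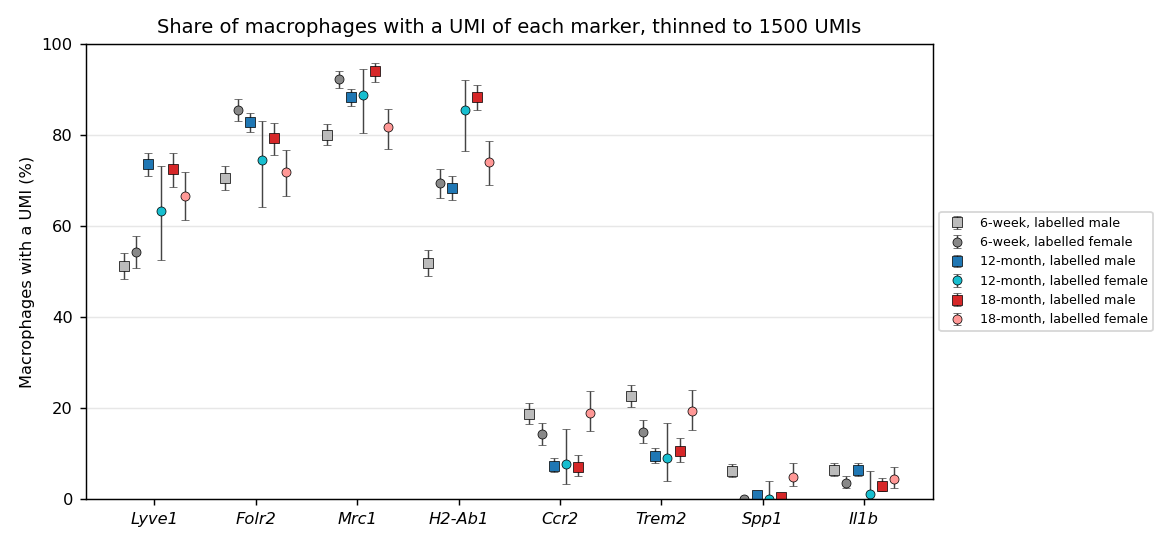
Percentage of macrophages with at least 1 UMI of each of 8 markers in each of the 6 libraries after thinning to 1500 UMIs, with 95% exact Clopper-Pearson intervals as bars. The 12-month and 18-month libraries interleave for Lyve1 and Mrc1, and the library labelled 18-month female is higher for Ccr2 (19.0%) and Trem2 (19.3%) than the other 3 of these ages.

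The library labelled 18-month female also differed from the other 3 of these ages in genes of lipid-associated macrophages. Spp1, which encodes osteopontin, was at 42.2, 0, 3.85 and 1626 CPM. Its share was 0.795% (0.382 to 1.46%), 0% of 90 macrophages, which allows up to 3.33%, 0.363% (0.0440 to 1.30%) and 4.89% (2.82 to 7.82%), and unthinned 1.05%, 0%, 0.503% and 7.76%. In that last library 2.60% of thinned fibroblasts also held an Spp1 UMI, against 0.156%, 0.706% and 0% in the other 3. Gpnmb, a glycoprotein of lipid-laden macrophages, was at 20.3, 4.57, 8.56 and 365 CPM and Fabp5, a fatty acid binding protein, at 50.3, 10.7, 37.7 and 818 CPM. Both were at most 50.3 CPM in the other 3 sums, the library labelled 18-month male among them. The 6-week libraries, labelled male then female, had Spp1 at 252 and 0.355 CPM, Gpnmb at 85.0 and 2.49 CPM and Fabp5 at 286 and 53.7 CPM. Their thinned macrophages held Spp1 in 6.11% and 0%, so high Spp1 was not particular to the library labelled 18-month female. Arg1, arginase 1, was at 2.11, 0, 0 and 379 CPM and was chosen after its values were seen. Of the list's 19 members 0 were higher in both 18-month sums and 4 were lower. Fabp5 (log2 fold change 3.49, SE 1.30) and Gpnmb (3.48, SE 1.44) had an edgeR unadjusted p under 0.05, and with exchanged sex labels Spp1, Gpnmb and Fabp5 were called higher (adjusted p 0.000404, 0.00768 and 0.00613). The list median of 0.07 turned below 0 in 6 of 19 alternatives, the lowest being -0.38 without the library labelled 18-month female. Apoe, a lipid carrier, was at 15411, 11609.5, 14892 and 12344 CPM.

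Genes of the ribosome and of the respiratory chain were among the lists with more higher than lower members. Of 83 nuclear genes of the respiratory chain 26 were higher in both 18-month sums and 2 lower, with a median of 0.40 and 0 members of unadjusted p under 0.05. On plain CPM these counts were 40 and 0, against a background of 31.3% higher. Over all members in the data the respiratory chain list summed to 14686, 10021, 14635 and 19855 CPM. The ribosomal list summed to 155502, 127475, 155031 and 180932 CPM. In both lists the labelled male libraries were alike, the labelled 12-month female sum was the lowest and the labelled 18-month female sum the highest. Sdhb, a subunit of complex II, was at 41.1, 35.1, 57.8 and 101 CPM (0.85, SE 0.37), Ndufb8 of complex I at 109, 82.3, 124 and 240.0 CPM (0.71, SE 0.40) and the assembly factor Ndufaf3 at 7.64, 6.10, 12.0 and 25.4 CPM (1.20, SE 0.52). The labelled 18-month female sum was the highest for each. Of 82 ribosomal protein genes 31 were higher and 9 lower, or 49 and 4 on plain CPM, with a median of 0.22 that turned to -0.01 when each barcode was thinned to 1500 UMIs. The members of smallest p went the other way. Rps29 was at 10041, 10825, 5376 and 4605 CPM (-1.26, SE 0.30), Rpl38 at 2418, 2059, 1287 and 1325 CPM (-0.97, SE 0.31) and Rps28 at 1588, 2012, 606 and 1506 CPM (-1.0, SE 0.47). All 3 have near-identical copies elsewhere in the genome, so their counts are uncertain.

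The genes of smallest p outside the lists were low or moderate in level. Ankrd33b was at 71.4, 71.6, 29.5 and 17.4 CPM (-1.79, SE 0.40, edgeR unadjusted p = 0.00313). Fgl2, a prothrombinase that macrophages and T cells make, was at 139.9, 123, 55.2 and 31.8 CPM (-1.78, SE 0.40, edgeR unadjusted p = 0.00329). Both had 12-month sums that nearly coincide, and both were called lower with exchanged sex labels. Unlike Gdf15, Fgl2 was highest at 6 weeks, at 198 and 167 CPM. Fibroblasts of the same 4 libraries held more of it, at 593, 747, 493 and 327 CPM, with a log2 fold change of -0.88. How much of the Fgl2 in the macrophage sums came from fibroblasts was not tested. Higher at 18 months were the linker histones Hist1h1e and Hist1h1b, whose canonical messages are made mainly in dividing cells. Hist1h1e had 3 and 1 UMIs at 12 months and 21 and 40 at 18 months, a ratio of pooled rates of 14.5 (95% exact interval 5.37 to 54.8, counting error only). Both histones were called higher with exchanged sex labels. Hist1h1b had 2 and 0 UMIs against 16 and 36, a ratio of 24.6 (6.49 to 209). Stc1, the hormone stanniocalcin 1, had no UMI in the 12-month sums and 17 and 11 at 18 months, at least 8.85-fold higher against a floor of 3 counts over the 12-month pair. Of 15 cell cycle genes 7 were higher in both 18-month sums and 2 lower. Their median of 0.53 turned to -0.27 when the sums were thinned to the smallest total. Mcm7, a replication helicase subunit, was at 3.42, 1.52, 6.42 and 15.7 CPM (1.74, SE 0.69).

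Transcripts of other cell types differed between the sums. The 13 fibroblast markers summed to 2278, 2573, 1695 and 297 CPM, with 7 lower in both 18-month sums and 0 higher. Collagen Col1a1 was at 108, 102, 43.6 and 3.39 CPM and Col3a1 at 258, 351, 105 and 7.63 CPM. The 10 markers of muscle and pericytes summed to 29.5, 4.57, 66.7 and 592 CPM, with Acta2, smooth muscle actin, at 9.48, 0, 14.1 and 268 CPM. The 9 epithelial markers summed to 304, 0, 0.856 and 1918 CPM, with the milk protein gene Csn3 at 78.5, 0, 0 and 727 CPM. Neutrophil markers summed to 280, 588, 466 and 208 CPM and lymphocyte markers to 39.0, 4.57, 17.5 and 49.6 CPM. The fibroblast total moves in the order of the inflammatory genes, and the muscle and epithelial totals with the genes high in the labelled 18-month female library. With exchanged sex labels 4 fibroblast markers were called lower, and 3 muscle and 4 epithelial markers higher. The part of these transcripts in the results was not tested. An upper limit for free RNA in each sum, scaled on collagen, was 32.9%, 61.6%, 17.3% and 2.48%, in the order of the fibroblast total. With that profile subtracted edgeR called 0 genes (530 at an unadjusted p under 0.05). It also called 0 with fibroblast-rich barcodes left out (484) and with Scrublet doublets left out (483).

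**Figure D4:**
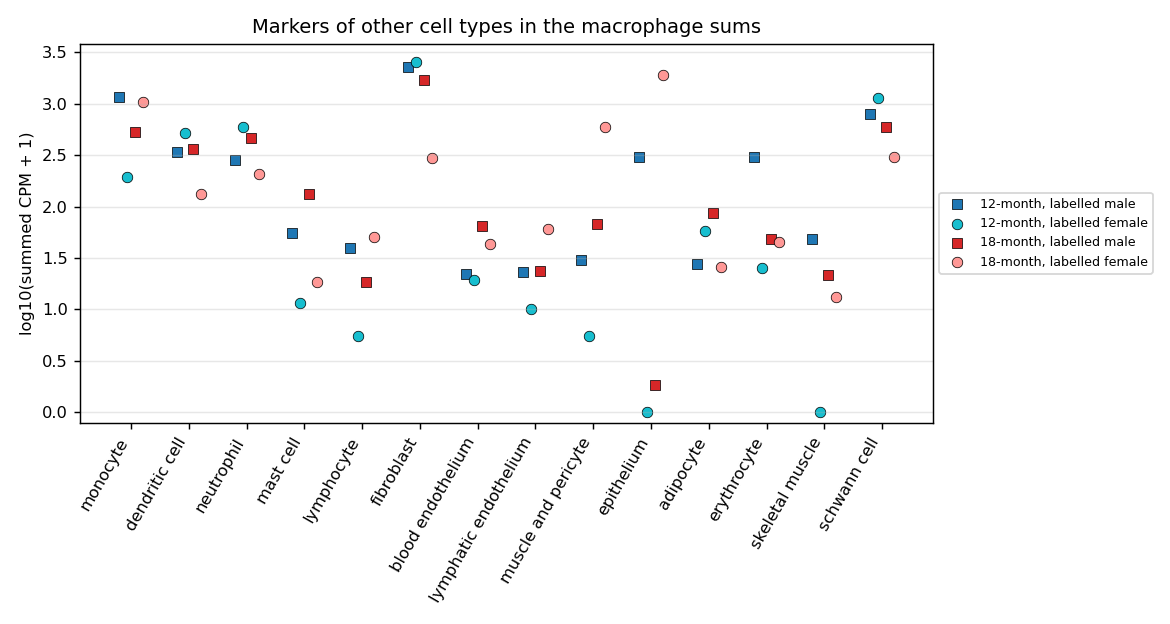
Summed CPM of marker lists of 14 other cell types in the macrophage sums of the 4 libraries, as log10(CPM + 1). The labelled 18-month female library is lowest for fibroblast markers (297 CPM) and highest for muscle and pericyte (592 CPM) and epithelial (1918 CPM) markers.

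Fibroblasts of the same 4 libraries gave a measure of what is shared between cell types. They were 2814, 430, 1491 and 405 barcodes with at least 10 UMIs of Col1a1, Col1a2, Col3a1 and Dcn and none of the C1q genes, Cd3e, Cd79a, Ptprc or Pecam1. In edgeR's test of the macrophage difference beyond the fibroblast difference, 0 of 11898 genes were called higher (0%) and 0 lower (0%), with 300 below 0.05 before adjustment. No DESeq2 fit was made for it. Without the library labelled 18-month male the test called 39 higher and 199 lower, without the one labelled 18-month female 8 and 5, and without the low-count filter 10 and 40. In the fibroblasts themselves edgeR called 0 of 11441 genes, with 232 at an unadjusted p under 0.05.

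Side by side, several inflammatory genes had like estimates in both cell types. The cytokine list had a median log2 fold change of -0.84 in macrophages and -0.74 over 26 members in fibroblasts, and the chemokine list -1.0 and -0.86. Il6 was at 292, 1051, 269 and 159 CPM in fibroblasts, above the macrophage sum of every library, with a fibroblast log2 fold change of -1.85 and a macrophage value beyond it of -1.33 (SE 0.46). Ccl2 was at 1488, 7938, 1779 and 312 CPM in fibroblasts, with -2.34, and beyond it 0.67 (SE 0.48). Mt2 was at 2022, 7742, 2321 and 618 CPM, with -1.91. For each of these the labelled 12-month female library was the highest and the labelled 18-month female library the lowest in fibroblasts as well. Gdf15 was at 23.5, 17.2, 47.5 and 6.58 CPM in fibroblasts, with a fibroblast log2 fold change of 0.32 and a value beyond it of -2.15 (SE 0.78). Hk1 stood at 31.4, 21.6, 30.6 and 42.9 CPM in fibroblasts, with 0.28, and -1.53 beyond it (SE 0.54). The adjusted p of each of these 4 values beyond fibroblasts was 1.00 (edgeR). Rps29 and Rpl38 had fibroblast values of -1.29 and -1.19, close to the macrophage ones. Tnf, Il1rn and Ccl3 were at most 12.5 CPM in any fibroblast sum.

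**Figure D5:**
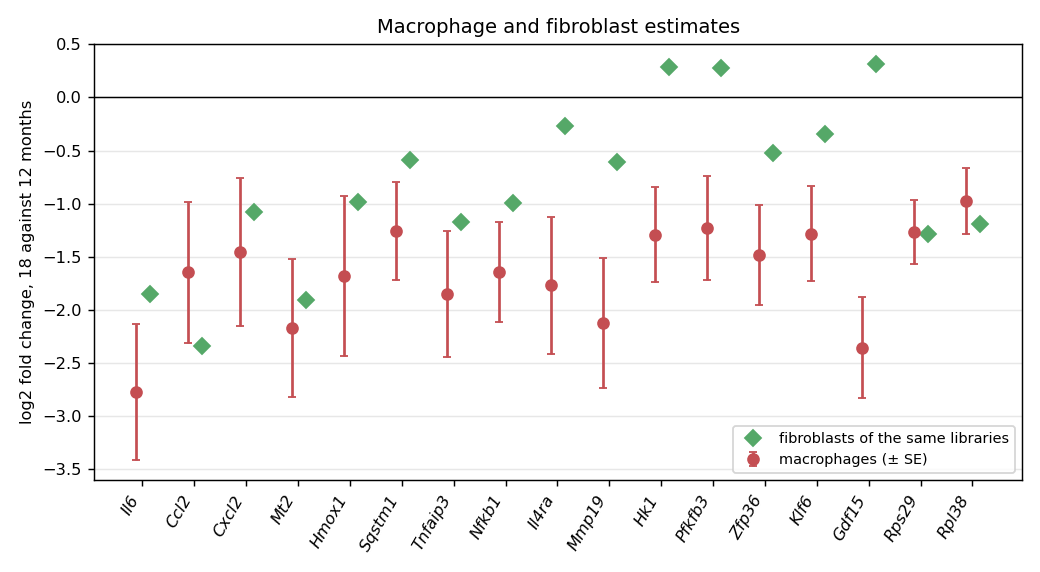
Log2 fold change between 18 and 12 months in macrophages (circles, with SE bars) and in fibroblasts of the same libraries (diamonds) for 17 genes. Il6, Ccl2, Mt2, Rps29 and Rpl38 are below 0 in both, while Gdf15 and Hk1 are below 0 in macrophages and at 0.32 and 0.28 in fibroblasts.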

How the data were processed

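The deposited values are raw UMI counts per gene and barcode. The submitters' processing notes name Cell Ranger 3.0.2, the mm10 build and, without settings, Seurat. No annotation of cells by the authors was used here. Barcodes were filtered and gated as the report states, on 6794880 listed barcodes per library. Counts were summed per library with cells of 1 library never treated as replicates. The sums were compared with edgeR 4.0.16 (TMM, filterByExpr, quasi-likelihood F test, Benjamini-Hochberg over all genes tested) under R 4.3.3. DESeq2 was run as an alternative. Doublets were marked by Scrublet, with 6% expected, and kept in the main sums. The 4 libraries have 9616652 to 23208824 UMIs in all barcodes.

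The members, gene lists and named-gene rule were chosen with earlier results of these data known. The rule names the 3 genes of smallest p in each direction where under 3 are called, up to 3 members of smallest p per list, and a set of fixed macrophage genes, while others are said to be picked after their values were seen. A list is described by counts and medians, with no test of its own. Genes that share a symbol were summed. Calls were tested on simulated data. Alternatives changed the scaling, test, filter, sex term, libraries, gate, doublets, free RNA, depth and cell filters.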

Additional observations from a re-analysis of the deposited data

How the results depend on the processing

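No genes were called in 15 of the 19 alternatives to the edgeR fit of 18 against 12 months, in which 86 to 791 genes had an unadjusted p under 0.05. DESeq2 called 4 lower, the fit without a low-count filter 85 higher and 109 lower, and exchanged sex labels of the 12-month pair 52 and 160. Leaving out 1 library at a time gave 0 to 223 higher and 0 to 457 lower, with calls only without the library labelled 18-month male. Labelled sex as a replicate block gave 0 and 0 calls. Under that pairing the deviations of the paired sums from their age means correlated at -0.357 across 9520 genes. With 2 sums an age, the crossed pairing gives the same value with its sign turned (0.357) by construction, so it is no second observation. For the difference beyond fibroblasts 50 genes were called without the filter, and 0 to 238 with 1 library left out: 238 without the one labelled 18-month male and 13 without the one labelled 18-month female. The cause of these changes was not tested, apart from the fewer samples that leaving out a library makes by construction. Of 1424 alternative log2 values of the 76 genes followed, 0 turned in sign and 104 passed the threshold. Many of the 76 were picked for a small p in the main fit, so a kept sign and a passed threshold are partly built in. Spp1, Gpnmb, Fabp5, Fos, Il1b, Hspa1a and Lyve1 were not among them. Of the 25 functional lists, 16 kept the sign of their median in every alternative and 9 did not. The 18-month minus 12-month difference in the macrophage share and in the 8 marker shares moved by less than the spread between libraries in every alternative run for them. That spread is wide for the macrophage share, so this does not show it to be stable. With at least 1000 genes required, both 18-month libraries (20.4% and 28.1%) were above both 12-month ones (18.8% and 10.8%), unlike in the main setting. The marker shares of single libraries moved further: Lyve1 in the library labelled 18-month male went from 72.4% to 58.9% when cells were thinned to 1000 UMIs. With 91 macrophages, the library labelled 12-month female sets the limit of depth.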
